A study of Mus musculus with 20 samples.

Results

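The mRNAs of the chaperones and co-chaperones of the cell were followed in NSC-34 cells with and without induced HuD. The genes were chosen by name from the RNA-Seq and POL-Seq gene table. A gene was taken if its symbol starts with *Hspa*, *Hspb*, *Hspd*, *Hspe*, *Hsph*, *Hsp90a* or *Dnaj*, or if it is *Tcp1* or one of *Cct2* to *Cct5*, *Cct6a*, *Cct7* and *Cct8*. The endoplasmic reticulum chaperones *Hspa5*, *Dnajb9*, *Dnajb11* and *Dnajc3* and names of pseudogenes were left out. This gave 67 of the 14924 genes with counts, made up of 25 *Dnajc*, 7 *Dnajb* and 4 *Dnaja* genes, 9 genes whose symbol starts with *Hspb*, 8 subunits of the cytosolic chaperonin TRiC (also called CCT), 7 Hsp70 genes, 3 Hsp110 genes, 2 Hsp90 genes, and the mitochondrial chaperonin genes *Hspd1* and *Hspe1*. All 67 passed the filter on low counts. The name rule reaches beyond the cytosol. *Hspd1*, *Hspe1*, *Hspa9*, *Dnaja3* and *Dnajc19* encode mitochondrial proteins, *Dnajc10* and *Hspa13* encode proteins of the endoplasmic reticulum, and *Hspbp1* and *Hspbap1* encode binding partners that share only the prefix of the small heat shock proteins. The stress-inducible Hsp70 genes *Hspa1a* and *Hspa1b* were not analysed here.

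NSC-34 cells are a mouse model of motor neurons and descend from neuroblastoma cells fused with cells of the embryonic spinal cord. Control cells were Trex cells, which carry the tetracycline repressor, as the study states for its CRAC controls. The HuD cells are Trex cells that in addition received, by lentivirus, human HuD (*ELAVL4*) with a His-HA tag behind a tetracycline-controlled CMV promoter. Whether the lines are single clones is not given in the sources used here. For RNA-Seq of total RNA, POL-Seq of polysomal RNA and 3′ end sequencing, HuD was induced for 48 h at 2 µg/ml, with tetracycline according to the sample labels and doxycycline according to the methods of the study. The treatment of the control cells in these 3 assays is not given in the labels. HuD itself, the lentiviral line and any difference in drug treatment therefore cannot be told apart in them. For CRAC, HuD and control Trex cells both received 10 µg/ml tetracycline for 24 h according to the labels and the CRAC protocol, while elsewhere the study names doxycycline for CRAC at the dose and time of the other assays. RNA-Seq and POL-Seq comprised 2 libraries per group (8 in all), 3′ end sequencing 3 per group (6 in all) and CRAC 3 per group, which the authors pooled. The methods call the replicates biological, other than for CRAC, and do not say what was grown separately, so p-values measure the spread between these libraries. In RNA from a whole culture, fewer cells of a type and less RNA per cell cannot be told apart.

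Hsp70 proteins bind short hydrophobic stretches of unfolded proteins in a cycle driven by ATP. J-domain proteins (the *Dnaj* genes) bring clients to Hsp70 and stimulate its ATPase, and Hsp110 proteins (*Hspa4*, *Hspa4l*, *Hsph1*) release the nucleotide again. Hsp90 acts later, on near-native clients such as kinases and steroid receptors, and TRiC encloses actin and tubulin while they fold. Small heat shock proteins such as *Hspb1* and *Hspb8* hold unfolded proteins without ATP, and mutations in both genes cause inherited motor neuropathies. Neurons rely on these systems because they cannot dilute damaged proteins by division. HuD is a neuronal RNA-binding protein of the ELAV family that binds U-rich sequences, mostly in 3′ UTRs.

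CRAC maps where the tagged protein was crosslinked to RNA, from reads that cover a site and from deletions that reverse transcription leaves at the crosslinked base. HuD windows were listed for 9 of the 67 genes, namely *Cct2*, *Cct6a*, *Dnajb4*, *Dnajb6*, *Dnajc8*, *Dnajc14*, *Hspb8*, *Hspd1* and *Hspe1*. Among the 66 genes typed as protein coding, 8 (12.1%) had a window, beside 9.90% of the 12953 protein coding genes with RNA-Seq counts. The share of chaperone genes with a window was therefore near that of protein coding genes in general. *Cct6a* is typed as a processed transcript in the deposited table and in GENCODE vM21, so it was counted apart although it is a TRiC subunit gene. The 9 genes held 14 unique windows of 7 nt. The windows of the genes with the most windows or the most deletions are shown with 11 nt on each side, as RNA from 5′ to 3′. Capitals mark the listed window, and lower case letters its surroundings, read from the GENCODE vM21 transcripts.
Cct2 window 1: ugauagccuuaAGUUUGAacauuagcuga
Cct2 window 2: auuuacuguuuCAUUUUCcauacaauuca
Cct2 window 3: auuuacaaguuCAUUUCUcauacugugua
Cct6a window 1: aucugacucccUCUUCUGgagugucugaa
Cct6a window 2: cucaaagcagcUCUUUUUcaacccacuga
Cct6a window 3: aaguuuguaauGGUUUUCuccuaaauaag
Dnajb6 window 1: gaauaacaggaACUUUUUuuuugaagauu
Dnajb6 window 2: aauacauuucuGGUUUAGuguacacuaag
Hspb8 window: acaacacagugCCUUUUUuuugcagcaug
Hspe1 window: uuccaugccucCCUUUUAuaauaaacaga

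Of the 14 windows, 13 carried UUU at positions 3, 4 and 5 from their 5′ end. The exception was the first window of *Cct6a*. The second base was C in 6 windows, G in 5 and A in 3. The authors scored windows against a matrix of the HuD motif, so this likeness is partly a property of the selection. All 11 windows outside *Cct6a* lay in 3′ UTRs of GENCODE vM21 transcripts on GRCm38. The 3 *Cct6a* windows, on the plus strand of chromosome 5, had no coding model to be placed against.

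*Cct2*, the beta subunit of TRiC, was the most covered of these mRNAs. Its windows began 113, 170 and 203 nt past the last coding base, at chr10:117051130-117051136, chr10:117051073-117051079 and chr10:117051040-117051046 on the minus strand. They were covered by 76, 57 and 104 reads in HuD cells and held 3, 5 and 4 deletions. *Cct6a*, the zeta subunit, had 20 reads with 8 deletions at chr5:129790979-129790985, in a transcript annotated as a retained intron. Near the 3′ end of the longest transcript it had 72 reads with 7 deletions at chr5:129846007-129846013, and 32 reads with 19 deletions at chr5:129846117-129846123. *Cct2* thus held the most reads, 237 in all, and *Cct6a* the most deletions, 34 over 124 reads.

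*Dnajb6*, a J-domain protein known for its hold on polyglutamine aggregation, had 26 reads and 4 deletions at chr5:29766494-29766500 and 22 reads and 5 deletions at chr5:29766913-29766919. Both windows lay downstream of the positions 29757969 and 29765627, at which 3′ ends of the gene were counted, and upstream of the third at 29767103. The last of these held 71.5% ± 1.46 (SD, n = 3) of the gene's 3′ end counts in the control libraries and 73.3% ± 3.28 (SD, n = 3) with HuD. *Hspb8*, which works with the co-chaperone BAG3 in chaperone-assisted autophagy, had 23 reads with 11 deletions at chr5:116408808-116408814, beginning 520 nt past the last coding base. *Hspe1* and *Hspd1*, which encode the lid and the barrel of the mitochondrial chaperonin, had 18 reads with 6 deletions and 6 reads with 4 deletions. *Dnajc14* had 23 reads and 5 deletions, *Dnajb4* 15 and 4, and *Dnajc8* 6 and 3. No read covered any of the 14 windows in control cells. The authors marked down locations with control reads when they chose windows, so this absence is partly a property of the selection.

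The coverage did not strictly follow the order of mRNA levels. *Dnajb4*, at 2.88 FPKM (counts scaled to library size and exon length) in control total RNA, had 15 reads, while *Hsp90ab1*, *Cct5* and *Hspa8*, at 536, 231 and 187 FPKM, had no listed window. Of the 10 members with the highest FPKM, 5 had a window, *Cct6a* included. The share among all genes of like FPKM is not given here, so this count cannot be set against genes in general. The most covered genes, *Cct2* and *Cct6a*, were at 391 and 174 FPKM. A median window on these genes was covered by 23 reads, beside 27 over all unique windows. By total coverage *Cct2* ranked 125th and *Dnajc8* and *Hspd1* 1219th among the 1304 protein coding genes of the CRAC table. The pooled table holds neither replicates nor library totals, so these values have no error and their depth is unknown. The authors' combined p was under 0.05 for 2 of the 14 windows, both on *Cct6a* (0.0486 and 0.0253). The share over all windows is not given here.

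**Figure D1:**
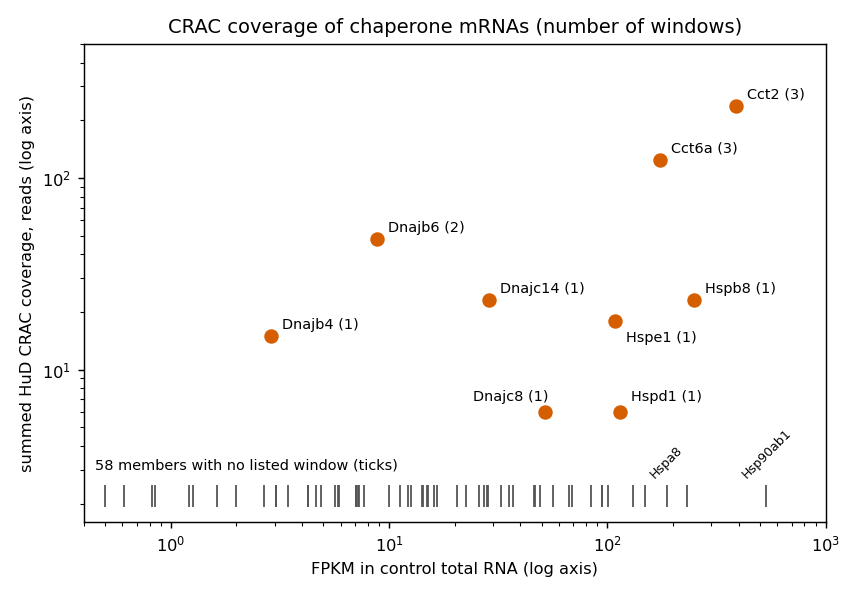
Reads covering the HuD windows of each gene, summed (y axis, log scale), against its FPKM in control total RNA (x axis, log scale, mean of 2 libraries). Points are the 9 genes with a window, with the number of windows in brackets, and ticks at the bottom are the 58 without. *Cct2* sits highest with 237 reads, and the ticks include *Hsp90ab1*, the most abundant mRNA of all.

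The RNA-Seq and POL-Seq libraries held 21296012 to 36284728 counted reads and the 3′ end libraries 12986862 to 15751036. The lowest total was that of polysomal control replicate 2, and this library stood apart over all genes as well as for the chaperones. It was the highest of the 8 libraries for 35 of the 67 members (52.2%), beside 27.3% of all genes. All 8 TRiC subunits, both Hsp90 genes and all 3 Hsp110 genes were among the 35. The same library was the lowest for 13 members and for 4100 of all 14924 genes. *Elavl4* was measured at 78.3 and 97.4 CPM (counts scaled to library size) in control and 237 and 212 CPM in HuD total RNA, a log2 change of 1.35 with an edgeR adjusted p of 0.0866. Its 3′ end counts were 78.1, 38.5 and 78.1 CPM in control and 54.6, 31.4 and 52.4 CPM in HuD cells, and since the transgene is human, counts at the mouse 3′ end do not check the induction. Of 7 motor neuron markers, 5 had counts, with *Isl1* at 34.7 to 43.0 CPM and *Chat* at only 0.449 to 0.544 CPM in total RNA. All 7 neuronal markers had counts, from *Stmn2* at only 0.238 to 0.419 CPM to *Tubb3* at 560 to 616 CPM. *Elavl4* itself is among the 7. No microglial marker was in the table, and 1 of 4 fibroblast, 2 of 3 astrocyte and 2 of 3 oligodendrocyte markers had counts. The summed astrocyte markers were 21.04 to 29.2 CPM in control and 25.2 to 31.1 CPM in HuD cells. Nearly all of this was *Slc1a2* (20.4 to 30.8 CPM), with *Gfap* at only 0.33 to 0.63 CPM and *Aqp4* without counts.

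In control total RNA the chaperone mRNAs spanned about 3 orders of magnitude in FPKM. The length used is that of all annotated exons of a gene together, so the order of genes depends partly on it. *Hsp90ab1*, the constitutive Hsp90, had the highest level, 536 FPKM ± 31.5 (SD, n = 2), and the inducible *Hsp90aa1* reached 66.6 ± 14.7. TRiC was high as a complex, from *Cct2* at 391 ± 12.2 and *Cct5* at 231 ± 6.17 to *Cct3* at 94.7 ± 8.99 and *Cct7* at 94.5 ± 5.41. The lowest subunits *Cct4*, *Cct3* and *Cct7* lay within each other's spread. Exon lengths differed between subunits, with 2766 nt for *Cct5* and 6778 nt for *Cct7*. *Hspb8* (249 ± 2.97) was far above *Hspb1* (7.09 ± 1.32), and the muscle gene *Hspb7* was at the bottom of all with 0.497 ± 0.148. *Hspa8*, the constitutive cytosolic Hsp70, had 187 ± 10.8, the mitochondrial Hsp70 gene *Hspa9* 83.8 ± 6.90, and the endothelial *Hspa12b* 0.610 ± 0.0841. *Hspd1* (114 ± 15.3) and *Hspe1* (108 ± 8.60) did not differ beyond their spread.

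The exchange factors were lower than the Hsp70 they serve, with *Hspa4* at 56.3 ± 10.7, *Hsph1* at 26.0 ± 4.32 and *Hspa4l* at 4.62 ± 0.548. Among J-domain genes the highest were *Dnaja2* (68.9 ± 6.40), *Dnajc8* (51.8 ± 0.327), *Dnajc7* (48.9 ± 1.15) and *Dnajb12* (46.7 ± 3.17). The heat shock partner of Hsp70, *Dnajb1*, was at 32.5 ± 1.98, *Dnaja1* at 16.7 ± 1.49, and *Dnajc5*, which encodes the synaptic vesicle protein CSPα, at 20.5 ± 1.06. In mean CPM *Dnaja1* (144) was above *Dnajb1* (104), over exon lengths of 8629 and 3204 nt. *Dnajb6* was at 8.83 ± 0.171. The lowest of each class were *Dnaja4* (1.62 ± 0.0846), *Dnajb14* (2.68 ± 0.0830) and *Dnajc28* (0.822 ± 0.279).

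**Figure D2:**
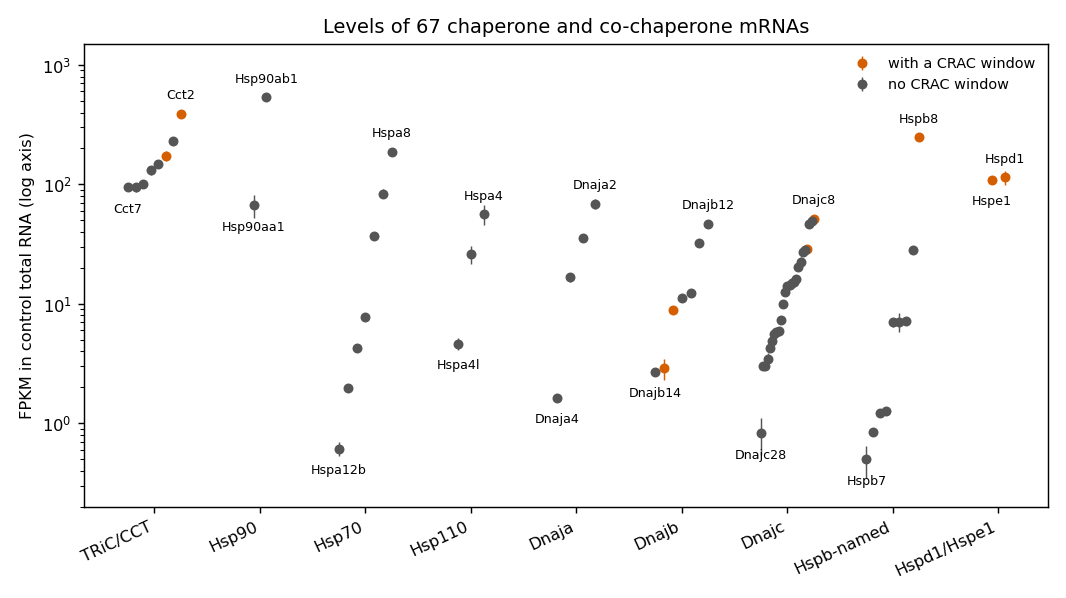
FPKM of each of the 67 genes in control total RNA (y axis, log scale; points are means and bars SDs of 2 libraries), by class (x axis), in orange where a CRAC window was listed. All 8 TRiC subunits lie between 94.5 and 391 FPKM, whereas the J-domain and *Hspb* classes spread down to 0.822 and 0.497 FPKM.

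Polysomal RNA was compared with total RNA in control cells, to ask how each chaperone mRNA was represented on polysomes relative to other mRNAs. Counts were scaled within each library, so the share of an mRNA that was on polysomes was not measured. *Hsp90aa1* had 221 and 303 CPM in total RNA of control replicates 1 and 2, and 252 and 427 CPM in polysomal RNA. In HuD cells it had 263 and 266 CPM in total and 283 and 284 CPM in polysomal RNA. The value of polysomal control replicate 2 was thus above all others. *Hspd1* had 274 and 331 CPM in control total RNA and 304 and 467 CPM in control polysomal RNA. *Hspa4* had 269 and 353 CPM, and then 311 and 459 CPM. In both genes polysomal control replicate 1 lay within the range of the total RNA libraries and replicate 2 outside it.

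No member passed an adjusted p of 0.05 in edgeR's quasi-likelihood test, beside 0.174% of all genes tested, and none passed in DESeq2. At an unadjusted p under 0.05, 4 members were higher in polysomal RNA, beside 4.45% of all genes, and 2 were lower, beside 6.25%. The median log2 ratio of polysomal to total RNA was 0.125 over the members and 0.01 over all genes. All 8 TRiC subunits, both Hsp90 genes and all 3 Hsp110 genes had positive ratios, with class medians of 0.18, 0.25 and 0.31. The class medians were 0.07, 0.09 and 0.21 in pair 1 of the control libraries and 0.26, 0.38 and 0.38 in pair 2, in the same order. In the fit without polysomal control replicate 2 they were 0.00, -0.07 and -0.01. Over the members the median log2 ratio was 0.06 in pair 1 and 0.20 in pair 2 of the control cells, and 0.04 and 0.05 in the HuD cells. Without polysomal control replicate 2 the median was 0.01. Without polysomal control replicate 1, 26 members were called, beside 14.4% of all genes, with *Hsp90aa1* at 0.71, *Hspd1* at 0.63 and *Hspa4* at 0.56 higher and *Dnajc19*, a component of the mitochondrial import motor, at -0.93 lower on the log2 scale. These 4 genes had -0.06, 0.00, -0.01 and -0.01 without polysomal control replicate 2. The remaining polysomal control library was there assumed to vary like the other groups.

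The control groups did not overlap between polysomal and total RNA for 21 of the 67 members (31.3%), beside 39% of all genes. The genes with the smallest p were named among these. *Hspa13*, an Hsp70-like protein of microsomes, had 28.4 and 29.7 CPM in total and 32.9 and 39.6 CPM in polysomal control RNA, a log2 ratio of 0.32 ± 0.12 (SE). *Dnajb14*, a membrane-anchored J-domain protein of the endoplasmic reticulum, had 41.3 and 43.2 CPM and then 47.7 and 48.5 CPM (0.19 ± 0.08). *Dnajc6*, the neuronal auxilin that uncoats clathrin vesicles with Hsc70, had 18.6 and 22.2 CPM and then 23.3 and 26.0 CPM (0.27 ± 0.11). *Hspa4l* had a log2 ratio of 0.34 ± 0.14 with groups that overlapped.

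In the other direction *Dnajc30*, a mitochondrial J-domain protein, had 47.5 and 42.9 CPM in total and 40.4 and 32.1 CPM in polysomal RNA (-0.31 ± 0.12). *Hspb2* had 1.00 and 1.12 CPM in total and 0.729 and 0.385 CPM in polysomal RNA (-0.85 ± 0.35), on 30 and 39 and on 24 and 8 reads. *Dnajc27*, a small GTPase with a J-domain, had 60.7 and 67.5 CPM and then 52.9 and 57.1 CPM (-0.22 ± 0.11). Their edgeR adjusted p-values were 0.462, 0.462 and 0.478.

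**Figure D3:**
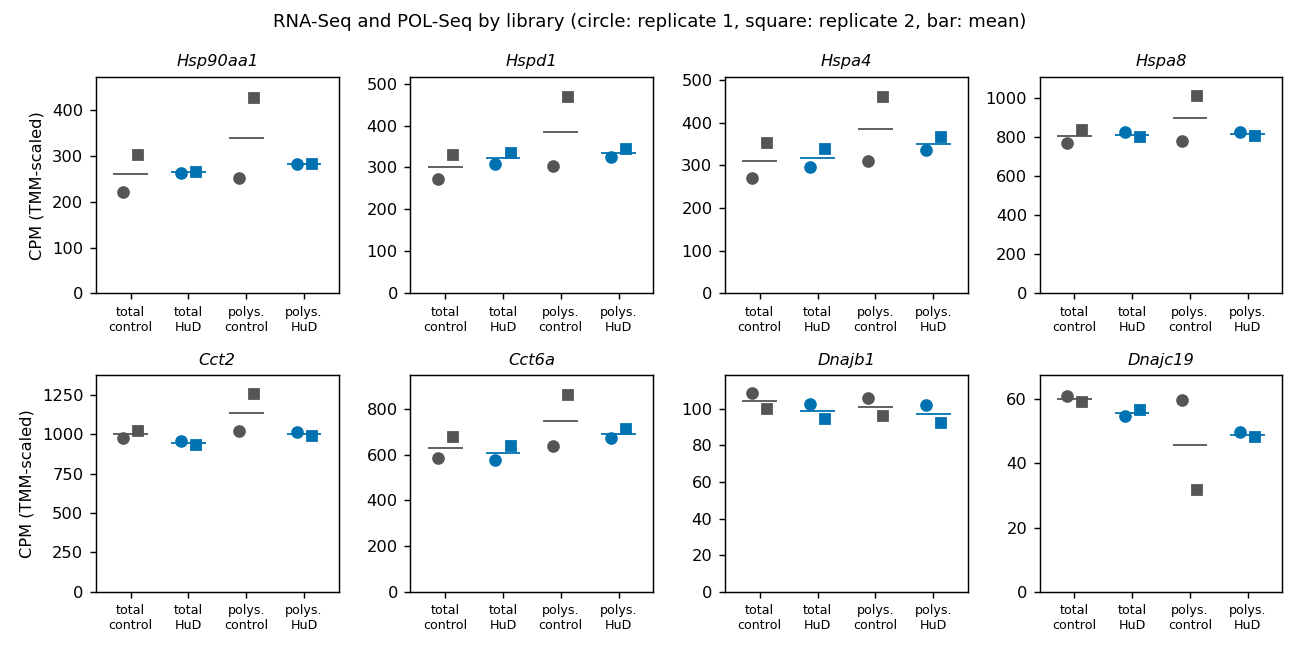
CPM of 8 members in each RNA-Seq and POL-Seq library (y axes start at 0; circles replicate 1, squares replicate 2, bars group means; grey control, blue HuD). The grey square of the polysomal control group is the highest library for *Hsp90aa1*, *Hspd1*, *Hspa4*, *Hspa8*, *Cct2* and *Cct6a*, and the lowest for *Dnajc19*.

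HuD and control cells were then compared in total RNA, which asks whether the level of chaperone mRNAs, relative to other mRNAs, differed between them. *Hsp90ab1* had 1541 and 1675 CPM in control and 1723 and 1612 CPM in HuD cells. *Hspa8* had 772 and 837 CPM in control and 825 and 801 CPM in HuD cells. *Cct2* had 977 and 1021 CPM in control and 956 and 930 CPM in HuD cells. The groups overlapped for *Hsp90ab1* and *Hspa8*, and for *Cct2* both HuD libraries lay below both control libraries, with a log2 change of -0.08 ± 0.11 (SE) that did not pass the test.

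No member passed an adjusted p of 0.05, beside 0% of all genes in edgeR, and none passed in DESeq2. At an unadjusted p under 0.05, 1 member was higher, beside 1.78% of all genes, and 0 were lower, beside 0.865%. The member was *Dnajb14*, with 41.3 and 43.2 CPM in control and 49.8 and 46.0 CPM in HuD cells, a log2 change of 0.18 ± 0.08 (SE) and an edgeR adjusted p of 1.00. DESeq2 gave no member at an unadjusted p under 0.05. The median log2 change was -0.03 over the members and 0.00 over all genes. The 8 TRiC subunits had changes between -0.08 and 0.00, with SEs of 0.11 to 0.14. *Hspa9* had 0.16 ± 0.12, *Hspd1* 0.09 ± 0.18, *Hspe1* -0.06 ± 0.12, *Dnajb1* -0.08 ± 0.10, *Dnaja1* -0.04 ± 0.13, *Dnajc7* 0.03 ± 0.12 and *Dnajc5* 0.05 ± 0.09.

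The groups did not overlap for 23 members (34.3%), beside 31.9% of all genes. The others with the smallest p among these 23 had changes as small. *Dnajc16* (0.12 ± 0.08) and *Hspa12a* (0.12 ± 0.08), the brain-enriched distant Hsp70, were higher in both HuD libraries. *Dnajc9*, a histone co-chaperone, had 111 and 109 CPM in control and 96.6 and 101 CPM in HuD cells (-0.15 ± 0.10). *Hspa14*, the Hsp70 of the ribosome-associated complex, had -0.13 ± 0.09 and *Hspb6* -0.20 ± 0.15. None of these 5 had an unadjusted p under 0.05.

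In polysomal RNA the comparison of HuD with control cells asks the same of the translated pool. *Cct2* had 1020 and 1256 CPM in control and 1012 and 988 CPM in HuD cells, *Cct6a* 636 and 861 against 672 and 710 CPM, and *Hspb8* 508 and 575 against 494 and 495 CPM. For *Cct2* and *Hspb8* both HuD values lay below both control values, and in each of the 3 genes the control libraries differed more from each other than the HuD libraries did. *Hspa8* had 778 and 1013 CPM in control and 828 and 808 CPM in HuD cells, and *Hsp90ab1* 1520 and 2003 against 1650 and 1593 CPM. Their HuD libraries lay between the control libraries.

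No member was called in edgeR or DESeq2, beside 0% of all genes in edgeR. At an unadjusted p under 0.05, 2 members were higher, beside 2.29% of all genes, and 2 were lower, beside 1.89%. *Dnajb14* had 47.7 and 48.5 CPM in control and 54.1 and 55.8 CPM in HuD cells (0.19 ± 0.08), and *Hspb2* 0.729 and 0.385 against 0.969 and 1.38 CPM (0.99 ± 0.34, on 8 to 44 reads a library). *Dnajc25*, a membrane-bound J-domain protein, had 19.0 and 21.6 CPM in control and 16.8 and 17.3 CPM in HuD cells (-0.25 ± 0.10), and *Dnajc8*, which binds a kinase of splicing factors, 138 and 172 against 129 and 133 CPM (-0.24 ± 0.11). The edgeR adjusted p was 0.969 for each. The groups did not overlap for 17 members (25.4%), these 4 included, beside 28.7% of all genes. *Hspbp1*, a nucleotide exchange factor of Hsp70, had 0.18 ± 0.08 and *Dnajc9* -0.19 ± 0.10, neither at an unadjusted p under 0.05. *Dnajb14* was the gene with an unadjusted p under 0.05 in both total and polysomal RNA, with nearly equal changes.

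The median log2 change in polysomal RNA was -0.09 over the members and -0.01 over all genes, and all 8 TRiC subunits were negative, between -0.20 and -0.12. Over the members the HuD to control median was 0.02 in pair 1 and -0.15 in pair 2, and for the TRiC subunits 0.01 and -0.28. Without polysomal control replicate 2 the members' median was 0.03. Without polysomal control replicate 1, 3 members were called, beside 2.49% of all genes, namely *Dnajc19* at 0.63, and *Dnajc21* and *Dnajc8* at -0.54 and -0.39. With all libraries these genes had log2 changes of 0.09, -0.29 and -0.24. *Dnajc19* turned to -0.28 without polysomal control replicate 2, where *Dnajc21* and *Dnajc8* had 0.00 and -0.07, and none of the 3 was called.

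Translation efficiency (TE) is the ratio of POL-Seq to RNA-Seq, and its change was tested as an interaction over the 8 libraries. With counts scaled within each library, a TE change is relative to other mRNAs. No member was called in edgeR or DESeq2, beside 0% of all genes in edgeR. At an unadjusted p under 0.05 no member was higher, beside 0.409% of all genes, or lower, beside 0.570%, and DESeq2 also gave 0. The members' median was -0.06 (all genes -0.01), with medians of -0.01 in pair 1 and -0.11 in pair 2. All 8 TRiC subunits were negative, from *Tcp1* at -0.18 ± 0.20 to *Cct6a* at -0.06 ± 0.20, and so were *Hsp90ab1* (-0.17 ± 0.19), *Hsp90aa1* (-0.28 ± 0.31), *Hspa8* (-0.15 ± 0.18) and *Hspa9* (-0.20 ± 0.18). Without polysomal control replicate 2 the members' median turned to 0.04, and without polysomal control replicate 1 it was -0.16 and *Dnajc19* was called at 0.74, beside 0.315% of all genes. *Dnajc19* had 0.19 with all libraries and -0.18 without polysomal control replicate 2. The TRiC subunits had a median TE change of 0.01 in pair 1 and -0.20 in pair 2, and in the fit without polysomal control replicate 2 all 8 were positive, with a median of 0.06.

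Same-numbered pair ratios did not overlap between HuD and control cells for 28 members (41.8%), beside 38.5% of all genes, and the 3 with the smallest p in each direction were named among these. *Hspb2* had a log2 polysomal to total ratio of -0.46 and -1.53 in the control pairs and -0.03 and 0.35 in the HuD pairs, a change of 1.03 ± 0.46 (SE). *Hspbp1* had a change of 0.24 ± 0.11 and *Dnajc24*, which serves diphthamide synthesis, 0.20 ± 0.16. *Dnajc17* had -0.35 ± 0.21, *Hspbap1* -0.27 ± 0.18 and *Dnajc28* -0.45 ± 0.35.

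**Figure D4:**
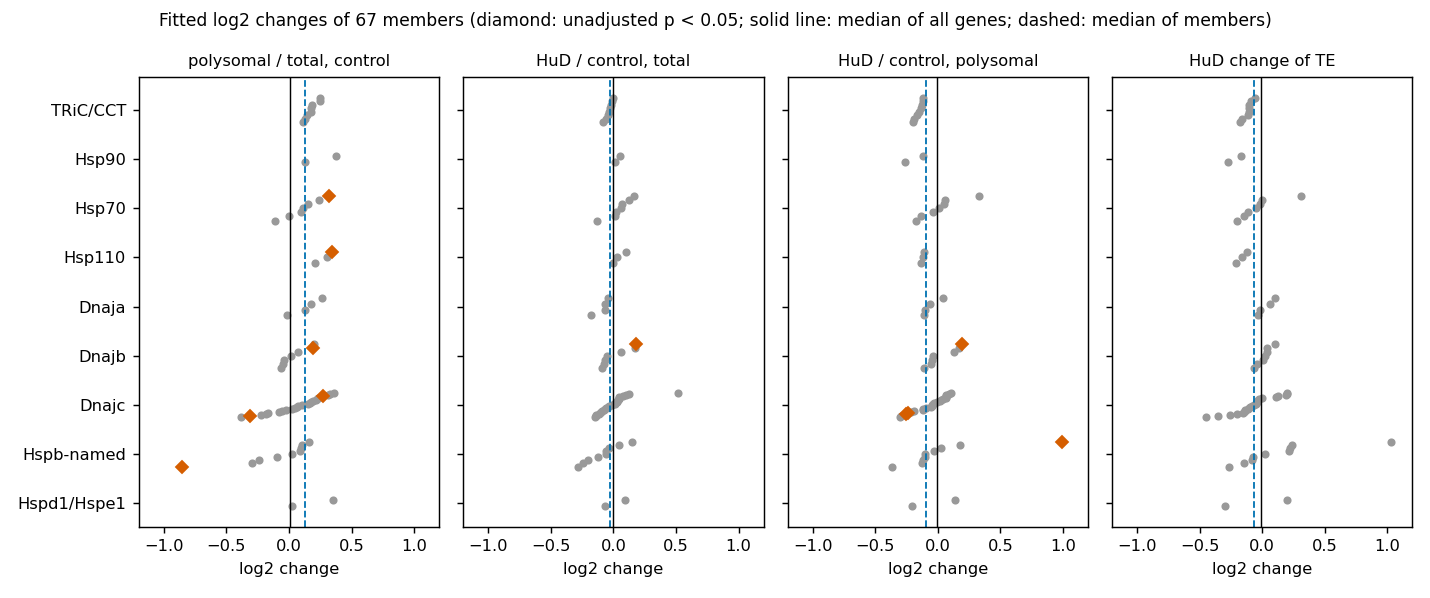
Fitted log2 changes of the 67 members in 4 comparisons (x axes), by class (y axis). Grey points had an unadjusted p of 0.05 or more, orange diamonds a smaller one, the solid line is the median of all genes and the dashed line that of the members. The panels hold 6, 1, 4 and 0 orange diamonds, and all but the total RNA panel share the polysomal control libraries.

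3′ end sequencing counts reads that begin near known polyadenylation sites, and gave a second measure of mRNA level with 3 libraries per group. It covered 53 of the 67 members and 9621 genes in all. Counts are compared only within a gene here, since the yield differs between sites: *Cct6a* had 8.64 to 10.9 CPM at its listed end and 576 to 676 CPM in total RNA. *Hspb1*, the small heat shock protein Hsp27 (ENSMUSG00000004951), had 78.9, 71.4 and 68.3 CPM in control and 37.3, 35.6 and 42.8 CPM in HuD cells. The groups were far apart and each was narrow. The log2 change was -0.92 ± 0.13 (SE), with an unadjusted p of 6.99e-05 and an adjusted p of 0.0750 in edgeR, so the gene did not pass the threshold. With the replicate number as a block, which pairs these libraries, the edgeR adjusted p was 0.00139, and in DESeq2 without the block it was 3.98e-06.

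The 2 ends listed for *Hspb1*, at positions 135889561 and 135889563 of chromosome 5 on the plus strand, lie 2 nt apart in the last exon at the annotated transcript end, and share reads. With only the more covered end the log2 change was -0.92 and the edgeR adjusted p 0.121. Leaving out each library in turn gave log2 changes of -0.999 to -0.856 and edgeR adjusted p-values of 0.0598 to 0.524. In RNA-Seq the gene had 8.27 and 6.35 CPM in control and 6.90 and 5.42 CPM in HuD total RNA, a log2 change of -0.25 ± 0.22 (SE). In polysomal RNA it had 9.24 and 6.16 CPM in control and 8.18 and 7.03 CPM in HuD cells, a log2 change of -0.03 ± 0.22. These groups overlapped. The difference between the assays was not tested, and the gene had no CRAC window.

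*Hspb8* had 1310, 1494 and 1093 CPM in control and 1450, 1791 and 1650 CPM in HuD cells. The lowest HuD library lay below the highest control library. The log2 change was 0.33 ± 0.14 (SE) with an edgeR adjusted p of 0.843, and 0.0666 with the block. Its change in total RNA was -0.06 ± 0.09, of the opposite sign, and neither passed the test. *Hspb8* and *Hspb1* were the members at an unadjusted p under 0.05, 1 higher, beside 2.87% of all genes, and 1 lower, beside 3.00%. No member was called, beside 0.0520% of all genes, while 1 (*Hspb1*) was called with the block, beside 2.26%, and 1 in DESeq2, again *Hspb1*, beside 0.364%. With the block 9 members had an unadjusted p under 0.05, beside 18.7% of all genes, a share no larger than that of genes in general.

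The other members with the smallest p were *Dnajc18*, with 20.6, 14.03 and 20.4 CPM in control and 23.9, 21.6 and 27.4 CPM in HuD cells (0.41 ± 0.19), *Cct7*, with 58.7, 67.9 and 59.7 against 68.1, 77.9 and 75.3 CPM (0.25 ± 0.13), and *Dnajc13*, an endosomal J-domain protein, at 1.83, 1.53 and 1.21 against 1.19, 0.686 and 1.13 CPM (-0.60 ± 0.32). These 3 and *Hspb1* were the members whose groups did not overlap, 4 of 53 (7.55%), beside 12% of all genes. The margin was narrow for *Dnajc18*, *Cct7* and *Dnajc13*, and *Dnajc13* had only 10 to 29 counts a library. The median log2 change was 0.02 over the 53 members and 0.00 over all genes. *Hsp90aa1* had 0.03 ± 0.12, *Hsp90ab1* 0.09 ± 0.16, *Hspa8* 0.19 ± 0.13, *Hspa4* -0.15 ± 0.11, *Hspd1* 0.14 ± 0.14 and *Cct2* -0.04 ± 0.11.

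**Figure D5:**
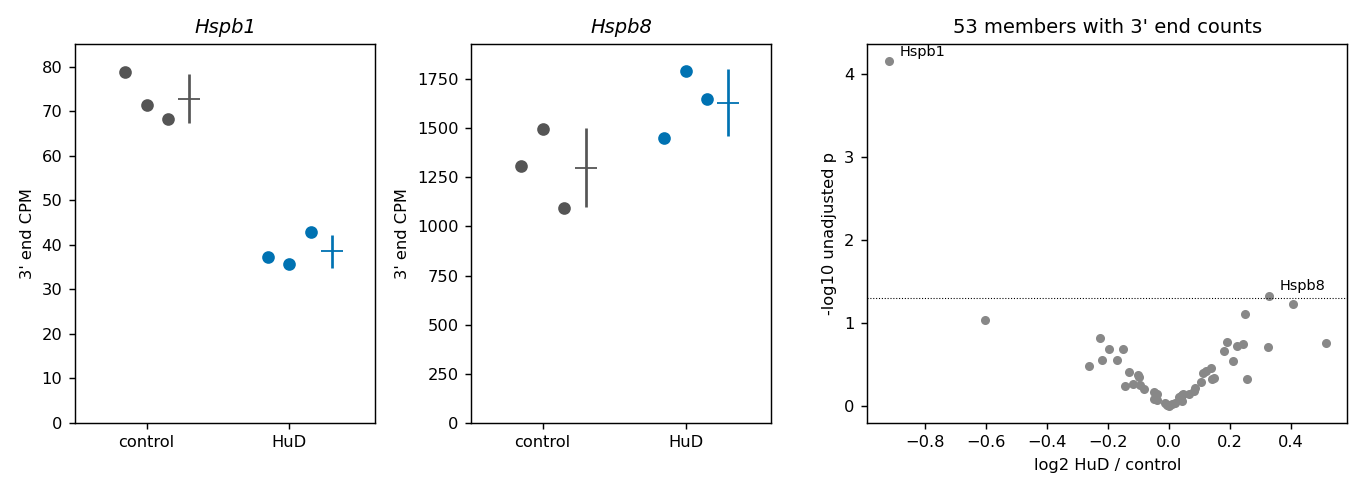
Left and middle, 3′ end CPM of *Hspb1* and *Hspb8* in 3 control (grey) and 3 HuD (blue) libraries, with mean and SD beside them and axes that start at 0. Right, log2 change of the 53 members (x axis) against -log10 of the unadjusted p (y axis; dotted line, p of 0.05). *Hspb1* stands alone at a log2 change of -0.92.

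The choice among the 3′ ends of a gene was compared for the 22 members with at least 2 listed ends, of which 14 had ends within 20 nt of each other. Ends this close can share reads, so the test could hardly show a change between them. No member was called, in edgeR's diffSpliceDGE, beside 0.0301% of the 3317 genes tested, and none had an unadjusted Simes p under 0.05, beside 0.181%. *Dnajc5* had the smallest p (0.473). It has ends at chromosome 2 positions 181549590 and 181552249, the first 217 nt past the last coding base. The first end held 56.9% ± 2.62 (SD, n = 3) of its counts in control and 48.0% ± 7.08 in HuD cells, on only 33 to 51 counts a library. *Dnajb5* (Simes p 0.576) and *Dnajc12* (0.592) followed, with ends 9 and 13 nt apart. The last end of *Hsp90aa1* held 64.5% ± 4.19 of its counts in control and 63.5% ± 3.19 in HuD cells.

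The 9 genes with a CRAC window had median log2 changes of -0.06 in total RNA, -0.12 in polysomal RNA, -0.06 in TE and 0.04 in 3′ ends (7 genes). The 58 without a window had -0.02, -0.08, -0.07 and 0.02 (46 genes). At an unadjusted p under 0.05 the former held *Dnajc8* in polysomal RNA and *Hspb8* in 3′ ends. *Dnajb6*, with 2 windows, had log2 changes of -0.09 ± 0.11, -0.05 ± 0.11, 0.04 ± 0.15 and 0.04 ± 0.12. *Dnajc14*, *Dnajb4* and *Hspe1* had changes in polysomal RNA of 0.02 ± 0.09, 0.13 ± 0.17 and 0.14 ± 0.12.

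The partners of these chaperones were read from lists of 58 genes, namely heat shock factors, co-chaperones of Hsp90 and Hsp70, prefoldin and TRiC helpers, endoplasmic reticulum relatives and the mitochondrial Hsp90 gene *Trap1*. Of these, 57 were tested in RNA-Seq and POL-Seq and 51 in 3′ ends, and none was called in any comparison in edgeR. At an unadjusted p under 0.05, 5 were higher and 1 lower in polysomal against total RNA, beside 4.45% and 6.25% of all genes. With HuD, 1 was higher and 0 lower in total RNA, beside 1.78% and 0.865%, and 1 was higher and 1 lower in polysomal RNA, beside 2.29% and 1.89%. None passed this limit in TE or 3′ ends. *Cdc37l1*, a relative of the kinase co-chaperone Cdc37, had 49.1 and 49.4 CPM in control and 59.5 and 64.9 CPM in HuD total RNA, and 51.5 and 58.6 against 65.1 and 72.4 CPM in polysomal RNA. Its log2 changes were 0.34 ± 0.10 and 0.32 ± 0.10, with edgeR adjusted p-values of 1.00 and 0.969. *Hsp90b1*, the Hsp90 of the endoplasmic reticulum, had 828 and 1271 against 835 and 757 CPM in polysomal RNA (-0.40 ± 0.18), with polysomal control replicate 2 again the high library. *Tbce* had 0.24 ± 0.11 in total RNA.

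In control cells *Vbp1*, a prefoldin subunit, and *Tomm70a*, the import receptor that docks Hsp70 and Hsp90, had polysomal to total log2 ratios of 0.33 ± 0.11 and 0.32 ± 0.11. In TE the smallest p-values were those of *Pfdn2* (0.23 ± 0.13) and *Ttc4* (-0.23 ± 0.14), and in 3′ ends those of *Bag5* (0.29 ± 0.14) and *Trap1* (-0.29 ± 0.15), all at an unadjusted p above 0.05. *Hsf1*, the master factor of the heat shock response, had 120 and 113 CPM in control and 112 and 115 CPM in HuD total RNA. *Hsf4* had no counts in the table.

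Heat shock genes are switched on by HSF1 through inverted repeats of the unit GAA. Promoters of 300 bases (250 before and 50 after the gene start, RefSeq on GRCm38.p6) were at hand for 53 of the 67 members. The element GAANNTTCNNGAA, or its reverse complement TTCNNGAANNTTC, was found in 4 of them (7.55%), beside 0.662% of the 27025 genes in the promoter table. The 4 were *Dnajb6*, *Hsph1*, *Hspd1* and *Hspe1*. *Hspd1* and *Hspe1* are divergent neighbours, and the stretch printed for them is the same one on chromosome 1, read on opposite strands. It holds 2 overlapping matches. A match is a stretch of letters and not a measured site. A gene counted if any of its listed promoters matched. Members were chosen partly by heat shock names, so a share above that of all genes is partly a property of the choice. The matches are shown in capitals with their neighbouring bases, 5′ to 3′ on the strand of the gene, at chr5:29735846-29735870 (plus strand) for *Dnajb6*, chr1:55088053-55088082 for *Hspe1* (plus) and *Hspd1* (minus), and chr5:149636282-149636306 (minus) for *Hsph1*, where the match lies after the gene start.
Dnajb6 promoter: ctccgaGAATCTTCCGGAAcgctag
Hspe1 promoter: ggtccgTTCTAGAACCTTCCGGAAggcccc
Hspd1 promoter: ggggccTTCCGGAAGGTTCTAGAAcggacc
Hsph1 promoter: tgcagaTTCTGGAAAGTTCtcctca
None of the 4 genes was called in any comparison of HuD with control cells.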

How the data were processed

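The authors deposited raw counts per gene for total and polysomal RNA, made with STAR 2.5.3a on GRCm38 with GENCODE M6. For 3′ ends they deposited counts of reads at known polyadenylation sites, reduced here to unique sites and summed per gene. For CRAC (TopHat2 2.0.14) they deposited pooled coverage as a signal in reads, deletion counts, a combined p-value that is not adjusted, and a motif score per window. The listed windows matched their sequence only after a shift of a few nt, and printed positions include it. Tests on counts used edgeR 4.0.16 in R 4.3.3 (TMM, filterByExpr, quasi-likelihood, Benjamini-Hochberg over all genes at 0.05). TE was an interaction, and end use was tested with diffSpliceDGE and Simes' method. CPM is TMM-scaled, FPKM uses the joint length of all GENCODE vM21 exons of a gene, and library medians use CPM + 0.1. Total counts per library are given in the report. DESeq2 1.42.0, other filters and scalings, a replicate block and leaving out each library were alternatives. The procedures were tested on simulated data. Same-numbered 3′ end libraries deviated together (r of 0.401, 0.657 and 0.515 for the 3 numbers in the labels), so the block is given beside those results. Members, lists and tests were chosen with earlier results of these data known. Genes named are those with a CRAC window, a fixed list of main chaperones, the 3 members with the smallest p in each direction whose groups do not overlap, the 3 with the smallest Simes p, the 2 listed partners with the smallest p, and the highest and lowest of each class by FPKM. *Dnajc19*, *Dnajc21*, *Hsf1* and the genes of the promoter matches were named after their values were seen.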

Additional observations from a re-analysis of the deposited data

How the results depend on the processing

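With 2 libraries a group, SEs of abundant members were mostly 0.1 to 0.3 on the log2 scale, and CRAC had no replicates. Changes of several SEs could also go uncalled. *Elavl4*, with a log2 change of 1.35 ± 0.15 (SE) in total RNA, had an edgeR adjusted p of 0.0866 and was not called. The absence of calls therefore does not exclude changes of such sizes in single members. When each library was left out in turn, the number of members called ranged from 0 to 26 for polysomal against total RNA, from 0 to 3 for HuD in polysomal RNA and from 0 to 1 for TE, and the members' median from 0.00935 to 0.193, from -0.127 to 0.0334 and from -0.160 to 0.0439. The median 3′ end change ranged from -0.00500 to 0.0509 and the number called stayed at 0. In total RNA the count called was 0 throughout, with medians of -0.0512 to 0.0134. In 3′ ends DESeq2 and the replicate block each called 1 member in place of 0. The larger moves of calls and medians in POL-Seq came from leaving out a polysomal control library. Same-numbered RNA-Seq and POL-Seq libraries deviated together (r of 0.278 to 0.535), but 2 numbers do not establish a pairing. With the replicate block no member was called there, while 20, 2, 12 and 1 members had an unadjusted p under 0.05 in polysomal against total RNA, HuD in total RNA, HuD in polysomal RNA and TE, in place of 6, 1, 4 and 0. All genes at that limit under the block were 20.6%, 6.16%, 9.3% and 2.43%. With only the compared libraries, 1 member in place of 6 had an unadjusted p under 0.05 in edgeR in the first comparison, beside 5.08% of all genes. *Hspb1* in polysomal RNA, near 0, was -0.271 without polysomal control replicate 2 and turned to 0.307 without polysomal control replicate 1 and to 0.0718 without polysomal HuD replicate 2. With only windows under the authors' combined p of 0.05, 1 member had a CRAC window, and with at least 2 windows 3 had one. The share of all genes at these limits is not given here, so these counts cannot be set against genes in general. No member's end use was called under any alternative, including merged ends with the replicate block, which was chosen after seeing the data. The causes were not tested.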
